A study of Mus musculus with 57 samples.

Results

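Trim66, Plekhg6, Extl1 and Ostn are 4 genes, of 52853 measured, that were much more abundant in some or all of the adipose tissues studied in Mfn2 R707W knock-in (KI) mice than in those of wild-type (WT) mice. Ostn had no counts in brown fat, and the genotypes overlapped for Extl1 in inguinal fat. The 4 genes were picked by name for large rises in KI mice in the same 3 RNA sequencing tables that are described here. Their differences between the genotypes are therefore given as a description, with no test. None of them is a usual marker of fat or of cellular stress, and they have little in common in what their proteins do.

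Mitofusin 2 (Mfn2) is a GTPase of the outer mitochondrial membrane that joins mitochondria together. Every KI mouse was homozygous for the change of arginine 707 to tryptophan, made in the germline with CRISPR-Cas9 in a line that goes back to 1 founder, so that every cell type of the animal carried it. KI and WT animals were C57BL/6J males. From 5 weeks of age they ate chow or a high-fat diet (HFD) with 45% of its energy as fat for 6 months. Bulk RNA was sequenced from inguinal white adipose tissue (WAT) of 8 KI and 8 WT mice on HFD, inguinal WAT of 6 KI and 7 WT mice on chow, and brown adipose tissue (BAT) of 6 KI and 6 WT mice on HFD. The sources do not say if the BAT was taken from the same animals as the inguinal fat. In bulk tissue, fewer cells of a type and less RNA per cell cannot be told apart.

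TRIM66 belongs to the TIF1 family, nuclear proteins that read histone tails through a PHD finger and a bromodomain and bind heterochromatin protein 1 (HP1). It is best known from the testis. PLEKHG6, also called MyoGEF, loads the small GTPase RhoA with GTP and works with nonmuscle myosin in dividing and migrating cells. EXTL1 is an exostosin-like glycosyltransferase of the pathway that builds heparan sulfate, the sugar chain that syndecans and glypicans carry on the cell surface. Osteocrin, also called musclin and encoded by Ostn, is a peptide secreted by bone and muscle. It binds NPR3, the receptor that clears natriuretic peptides from the circulation, and adipocytes carry much NPR3.

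In the tables, which use GRCm38 coordinates, Trim66 (ENSMUSG00000031026) spans chr7:109449006-109508134 on the minus strand, Plekhg6 (ENSMUSG00000038167) spans chr6:125362660-125380793 on the minus strand, Extl1 (ENSMUSG00000028838) spans chr4:134356372-134383850 on the minus strand and Ostn (ENSMUSG00000052276) spans chr16:27307489-27351212 on the plus strand. Each is protein coding. Extl1 lies on the same chromosome as Mfn2, 13.5 Mb from it. RefSeq promoters (GRCm38.p6) were matched for 2 of the 4 genes, Trim66 and Extl1. The 250 bases before each start site, minus strand, are shown because co-variation with stress genes was examined, and stress genes are often reached through a composite C/EBP-ATF site.
Trim66 promoter, chr7:109508135-109508384: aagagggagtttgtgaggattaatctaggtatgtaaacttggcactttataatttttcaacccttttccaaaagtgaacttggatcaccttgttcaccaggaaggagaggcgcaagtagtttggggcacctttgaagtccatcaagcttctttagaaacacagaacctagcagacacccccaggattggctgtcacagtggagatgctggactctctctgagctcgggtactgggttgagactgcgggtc
Extl1 promoter, chr4:134372548-134372797: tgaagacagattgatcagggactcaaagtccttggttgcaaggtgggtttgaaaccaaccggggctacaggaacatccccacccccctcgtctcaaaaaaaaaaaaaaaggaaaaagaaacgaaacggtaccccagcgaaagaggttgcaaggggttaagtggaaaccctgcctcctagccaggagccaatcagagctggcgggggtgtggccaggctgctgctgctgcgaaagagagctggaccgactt
Neither stretch holds the C/EBP-ATF response element TGATGNAA, the cAMP response element TGACGTCA or the E-box CACGTG on either strand, so no letters are in capitals. Of 32851 mouse promoters of that length, 3.45% hold the first, 1.55% the second and 6.02% the third. At least 1 promoter of 10 of the 30 matched genes of the integrated stress response (ISR) holds the first, against 3.91% of all 27025 genes. The Extl1 stretch lies inside the span of the gene given above, upstream of an internal start. These letters say nothing of sites elsewhere.

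Each mouse gave 8042591 to 11720458 counts in BAT and in inguinal WAT on chow, and 17572752 to 25680411 in inguinal WAT on HFD, so low genes were counted less finely in BAT and on chow. Levels are given as CPM, counts scaled to library size, after scaling all 41 columns together by the trimmed mean of M values. A gene is called changed at an adjusted p below 0.01. Adipocyte markers were high everywhere, and brown adipocyte markers summed to 8270 to 13845 CPM in BAT against 4.36 to 476 CPM in inguinal WAT. The point mutation cannot be read from gene counts. Mfn2 itself differed by a log2 fold change of 0.34 ± 0.09 (SE) in inguinal WAT on HFD (adjusted p = 0.0114, edgeR). Of the 35 ISR genes, 35 were tested on HFD in inguinal WAT and 34 in each other table. Those called higher were 21 on HFD in inguinal WAT, 13 on chow and 15 for BAT, beside 6.21%, 1.96% and 1.36% of all genes. None was called lower, beside 5.24%, 1.27% and 0.475%.

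For 3 of the 4 genes in each table, no WT mouse reached the lowest KI mouse. That pattern held for 2.09% of genes tested on HFD in inguinal WAT, 2.75% on chow and 2.64% for BAT. Among the members tested, 2 of 3 were called higher on HFD (6.21% of all genes), 3 of 4 on chow (1.96%) and 3 of 3 in BAT (1.36%). None was called lower, against 5.24%, 1.27% and 0.475% of all genes. Nothing is read from these shares, since the rule used the same contrasts. Ostn did not pass the filter on low counts in inguinal WAT on HFD or in BAT.

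**Figure D1:**
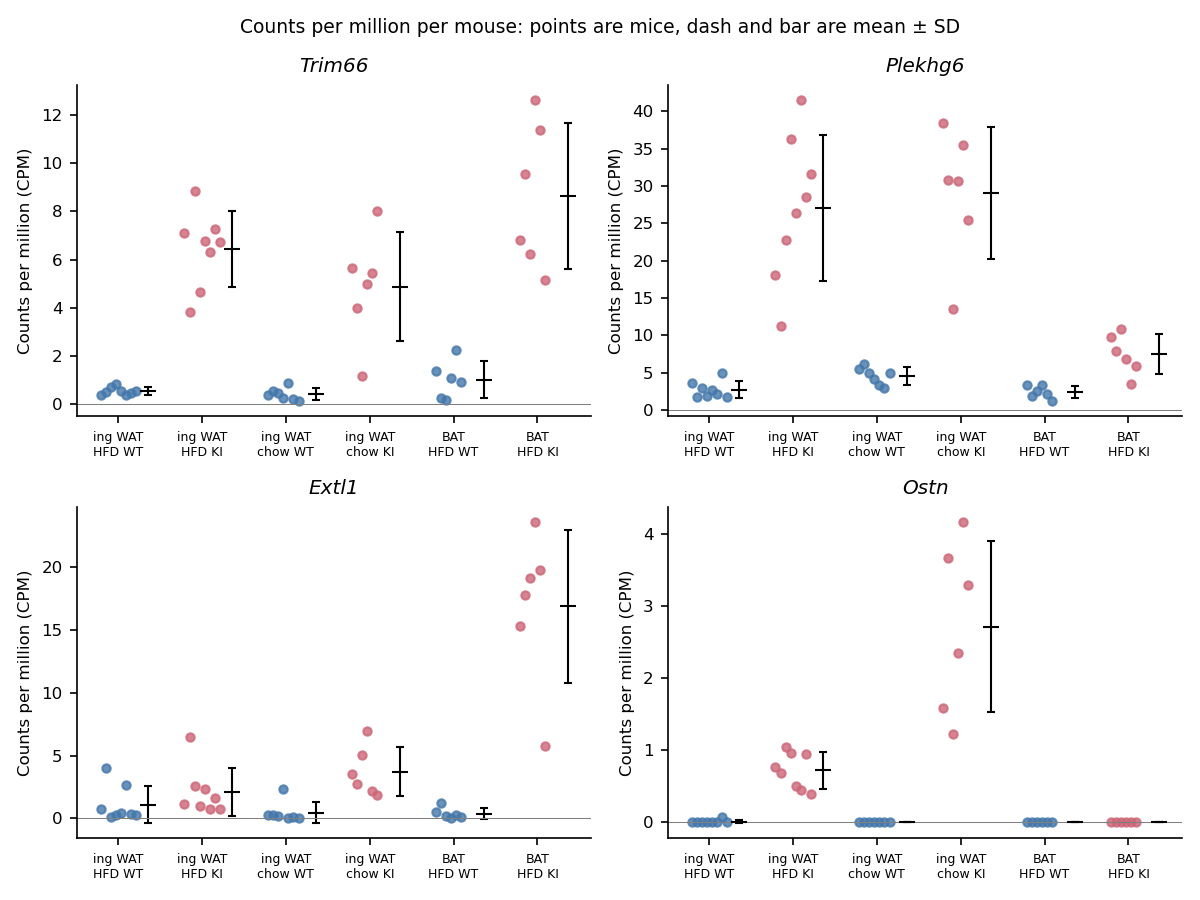
CPM of Trim66, Plekhg6, Extl1 and Ostn in each mouse (points; blue WT, red KI) of the 6 groups, with the mean and SD of each group (dash and bar). Trim66 and Plekhg6 separate the genotypes in all 3 tables, Extl1 separates them only in BAT, and Ostn was counted in KI mice of inguinal WAT but in no BAT library.

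Trim66 was scarce in WT fat and several CPM in KI fat. In inguinal WAT on HFD, WT mice ranged from 0.344 to 0.805 CPM (median 0.496, n = 8), and KI mice from 3.81 to 8.83 CPM (median 6.75, n = 8). On chow the WT range was 0.108 to 0.848 CPM (median 0.364, n = 7) and the KI range 1.14 to 8.02 CPM (median 5.23, n = 6). In BAT, WT mice held 0.160 to 2.24 CPM (median 0.999, n = 6) and KI mice 5.13 to 12.7 CPM (median 8.18, n = 6). The genotypes did not overlap in any table, although KI mouse 3 on chow, at 1.14 CPM, came close to the highest WT mouse. Fitted log2 fold changes were 3.63 ± 0.21 (SE) on HFD in inguinal WAT, 3.59 ± 0.45 on chow, and 3.09 ± 0.41 for BAT. The KI effect on HFD minus that on chow was 0.03 (95% interval -1.10 to 1.17), and that in BAT minus that in inguinal WAT was -0.50 (-1.43 to 0.43). Because WT mice on chow and in BAT had 1 to 16 reads of Trim66, the size of the rise there rests on few counts.

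Calls among the relatives of Trim66 and the HP1 genes are listed without a reading, since 6 genes are few beside the shares of all genes called. These shares were 6.21% higher and 5.24% lower on HFD in inguinal WAT, 1.96% and 1.27% on chow, and 1.36% and 0.475% in BAT. Of the 6 genes tested in each table (Trim24, Trim28, Trim33 and the 3 HP1 genes), none was called higher in any table, and only Cbx5, which encodes HP1 alpha, was called lower, on chow (log2 fold change -0.38 ± 0.07, adjusted p = 0.00485, edgeR). That call ended when KI mouse 1, 2, 3 or 4 or WT mouse 1, 2, 3 or 7 was left out (adjusted p up to 0.0148). Their median log2 fold change was 0.08 on HFD in inguinal WAT, 0.01 on chow and -0.01 for BAT, beside 0.01, -0.01 and -0.01 over all genes tested. Trim28, the corepressor that KRAB zinc-finger proteins recruit, held 83.7 ± 5.34 CPM (SD, n = 8) in KI and 76.5 ± 5.71 CPM (n = 8) in WT mice on HFD. Over the 3 tables the log2 fold change lay between -0.10 and 0.09 for Trim24 and between 0.02 and 0.46 for Trim33. Trim33 was highest in BAT (0.46 ± 0.14, adjusted p = 0.0557, edgeR), with 5 of 6 KI mice above every WT mouse, and missed the call. Per kilobase, Trim66 in KI mice on HFD (0.635 CPM per kb in inguinal WAT, 0.853 in BAT) stayed under Plekhg6 (8.20 and 2.26). Neighbours within 10 kb had few counts: Stk33 had at most 46 counts in a library and 1700095J03Rik at most 3.

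Per kilobase of RNA, Plekhg6 was the most abundant of the 4 genes in inguinal WAT (8.20 CPM per kb in KI mice on HFD, against 0.482 to 0.635 for the others). On HFD its level was 1.79 to 4.95 CPM in WT mice (median 2.47, n = 8) and 11.2 to 41.6 CPM in KI mice (median 27.5, n = 8). On chow, WT mice had 2.91 to 6.12 CPM (median 4.98, n = 7) and KI mice 13.6 to 38.4 CPM (median 30.8, n = 6). BAT held less of it, 1.22 to 3.41 CPM in WT (median 2.33, n = 6) and 3.50 to 10.9 CPM in KI mice (median 7.38, n = 6). Each KI mouse stood above each WT mouse of its table, narrowly so in BAT, where KI mouse 5 at 3.50 CPM and WT mouse 4 at 3.41 CPM were neighbours. The log2 fold change was 3.30 ± 0.27 (SE) on HFD in inguinal WAT, 2.66 ± 0.23 on chow and 1.59 ± 0.29 for BAT. The KI effect was smaller in BAT than in inguinal WAT on HFD by 1.67 on the log2 scale (difference -1.67, 95% interval -2.52 to -0.81), and larger on HFD than on chow by 0.66 (-0.11 to 1.42).

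Of 19 genes for other Plekhg exchange factors, RhoA and related GTPases, the kinases that RhoA activates and nonmuscle myosins, 19 were tested in inguinal WAT on HFD and 18 in each other table. Rock2, one of these kinases, was the only one called, higher in KI mice on HFD (219 against 149 CPM, log2 fold change 0.57 ± 0.11, adjusted p = 0.00107, edgeR). Over all genes tested on HFD in inguinal WAT, 6.21% were called higher and 5.24% lower. The list's median was 0.00 on HFD, -0.10 on chow and -0.04 in BAT. Myh9, the main nonmuscle myosin heavy chain, had 608 ± 115 CPM (SD, n = 8) in KI and 475 ± 69.2 CPM (n = 8) in WT mice on HFD, and missed the call (adjusted p = 0.0348, edgeR). Plekhg6 lies 176 bases from Tnfrsf1a, the TNF receptor gene on the other strand, which had 1003 to 6625 counts per library. Tnfrsf1a was not called in any table, with log2 fold changes of 0.18 ± 0.09 on HFD in inguinal WAT, 0.08 ± 0.09 on chow and 0.30 ± 0.09 for BAT.

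**Figure D2:**
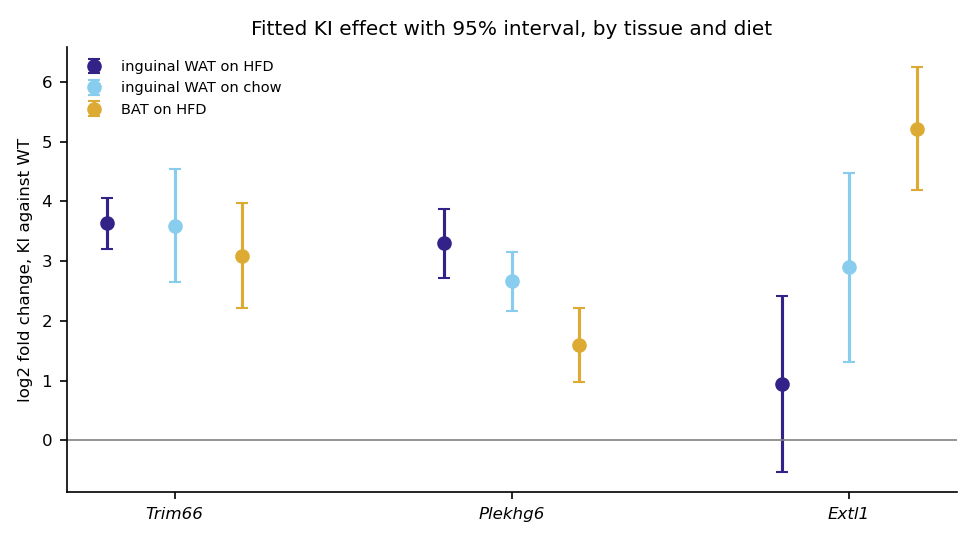
Fitted log2 fold change of KI against WT mice (points) with its 95% interval (bars) for Trim66, Plekhg6 and Extl1 in the 3 tables; Ostn is left out because its WT mice had 2 counts or fewer. Trim66 lies between 3.09 and 3.63 in all tables, Plekhg6 falls from 3.30 to 1.59 in BAT and Extl1 reaches 5.22 there.

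Extl1 had its large rise in BAT. WT mice there had 0 to 1.21 CPM (median 0.220, n = 6; 0 to 11 counts) and KI mice 5.77 to 23.6 CPM (median 18.5, n = 6; 36 to 211 counts), a ratio of means of 43.9 and a log2 fold change of 5.22 ± 0.48 (SE). KI mouse 6, at 5.77 CPM, lay well under the other KI mice, which held 15.3 CPM or more, but above every WT mouse. Extl1 ranked second among the 180 genes called higher in BAT by size of the rise. Without the 2 WT libraries that carried skeletal muscle markers (2459 and 2728 CPM), which held the most Extl1 of the WT mice, the log2 fold change was 6.63 ± 0.55.

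In inguinal WAT the genotypes overlapped. On HFD, WT mice had 0.0959 to 4.03 CPM of Extl1 (median 0.388, n = 8) and KI mice 0.749 to 6.49 CPM (median 1.39, n = 8), and only KI mouse 2 exceeded every WT mouse. On chow, WT mice had 0 to 2.33 CPM (median 0.230, n = 7) and KI mice 1.85 to 6.96 CPM (median 3.18, n = 6), with 4 of 6 above every WT mouse. The log2 fold change was 0.94 ± 0.69 (95% interval -0.53 to 2.41) on HFD and 2.90 ± 0.74 (1.32 to 4.48) on chow. The KI effect in BAT exceeded that in inguinal WAT on HFD by 4.38 (2.21 to 6.56).

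In inguinal WAT several libraries with much Extl1 carried lymphocyte markers. The summed level of 5 lymphocyte markers (Cd79a, Ms4a1, Cd3e and Cd3g among them, none with a median count of 0 in any group) ranged on HFD from 5.99 to 359.6 CPM in WT and from 4.47 to 513 CPM in KI mice. On chow it ranged from 5.74 to 81.0 CPM in WT and from 2.98 to 315 CPM in KI mice, and in BAT from 4.06 to 8.51 CPM. KI mouse 2, WT mouse 2 and WT mouse 6 on HFD, with 513, 359.6 and 185 CPM of these markers, held 6.49, 4.03 and 2.68 CPM of Extl1, the 3 highest values of that table. WT mouse 4 on chow (81.0 CPM of markers and 127 CPM of epithelial markers) held 2.33 CPM, against at most 0.273 CPM in the other 6 WT mice. KI mice 3 and 1 on chow, with 315 and 92.9 CPM of markers, held 5.07 and 3.57 CPM of Extl1, the highest of the KI mice there but for 1. KI mouse 4 held the most Extl1 of that table (6.96 CPM) with 5.98 CPM of lymphocyte markers and 59131 CPM of skeletal muscle markers. WT mouse 1 on chow had 49.0 CPM of lymphocyte markers and 0.273 CPM of Extl1, against 0 to 0.259 CPM in the 5 WT mice with fewer.

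Without the 7 inguinal libraries above 20 CPM of lymphocyte markers, a choice made after the values were seen, the genotypes no longer overlapped. On HFD the 7 remaining KI mice had 0.749 to 2.60 CPM of Extl1 and the 6 WT mice 0.0959 to 0.744 CPM, with a log2 fold change of 2.05 ± 0.41 (SE). On chow the 4 remaining KI mice had 1.85 to 6.96 CPM and the 5 WT mice 0 to 0.259 CPM, with a log2 fold change of 4.66 ± 0.65. The difference of the KI effect between BAT and inguinal WAT was then 3.26. In the same fits Trim66 was 3.63 on HFD and 3.67 on chow, and Plekhg6 was 3.28 and 2.78. KI mouse 2 on HFD and KI mouse 3 on chow, which had the most of them, held the least Trim66 and Plekhg6 of all KI mice of their tables. The part of these cells in the Extl1 values of single libraries was not tested.

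**Figure D3:**
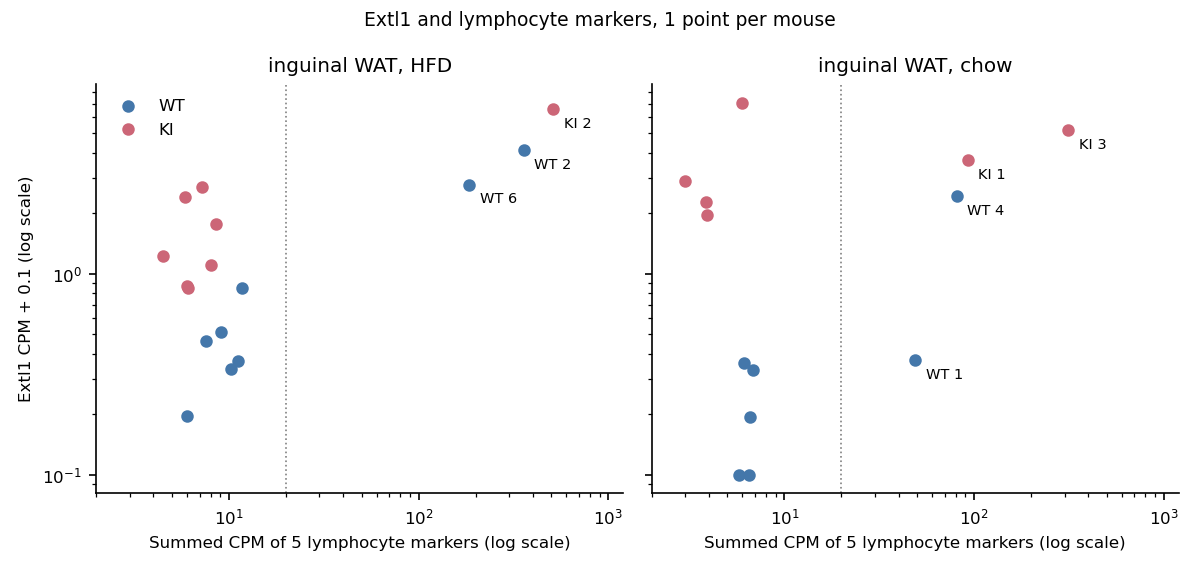
Extl1 (CPM + 0.1, log axis) against the summed level of 5 lymphocyte markers (CPM, log axis) in each mouse of inguinal WAT on HFD and on chow (blue WT, red KI); libraries above 20 CPM of markers (dotted line) are named. Left of the line every KI mouse lies above every WT mouse of its table.

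Other genes of heparan sulfate were called in each table, and nothing is read from their number. Over all genes tested, 6.21% were called higher and 5.24% lower on HFD in inguinal WAT. These shares were 1.96% and 1.27% on chow, and 1.36% and 0.475% in BAT. Of 26 genes for heparan sulfate enzymes, 21 were tested on HFD in inguinal WAT, 20 on chow and 19 for BAT. On HFD Ext2, a subunit of the polymerase that lengthens the chain, was called higher (64.7 against 49.7 CPM, log2 fold change 0.38 ± 0.08, adjusted p = 0.00304), and Hs6st1, which adds sulfate, was called lower (-0.72 ± 0.10, adjusted p = 5.83e-05, edgeR for both). Hs6st1 and the sulfatase Sulf1 were called lower on chow (-0.66 ± 0.13 and -0.68 ± 0.14), calls that ended without any 1 of 9 and of 10 of the 13 mice (adjusted p up to 0.0169 and 0.0235, edgeR). In BAT only Extl3, a relative of Extl1 that starts the chain, was called, and it was lower (-0.50 ± 0.09, adjusted p = 0.0039, edgeR), a call that ended without KI mouse 2, WT mouse 3 or WT mouse 5 (adjusted p up to 0.0181). The call of Ext2 ended without KI mouse 6 or WT mouse 1, 4 or 5 on HFD (up to 0.0118), and that of Hs6st1 on HFD held without each of the 16 mice. Ext1, the partner of Ext2 in the polymerase, was not called in any table, with log2 fold changes of -0.07 to -0.22. The list's median log2 fold change was -0.05 on HFD, -0.09 on chow and -0.10 in BAT. In KI mice Extl1 was 0.482 CPM per kb in inguinal WAT on HFD and 3.90 CPM per kb in BAT.

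Of 13 core proteins that carry heparan sulfate, 12 were tested on HFD in inguinal WAT and 10 in each other table. The shares of all genes called are those given for the enzymes, and nothing is read from the number of calls. Sdc4 (syndecan 4) was called higher on HFD (68.7 against 40.6 CPM, log2 fold change 0.77 ± 0.19), while the glypicans Gpc1 (-0.79 ± 0.13) and Gpc3 (-0.96 ± 0.22) were called lower. On chow Sdc2 was called lower (-0.48 ± 0.09), and in BAT none was called. The call of Sdc2 ended without any 1 of 7 of the 13 mice (KI mouse 1, 2 or 3, WT mouse 2, 3, 6 or 7; adjusted p up to 0.0133, edgeR) and that of Sdc4 without any 1 of 11 of the 16 (up to 0.0167). Their medians were -0.13, -0.26 and -0.24. Slc30a2, which lies 1888 bases from Extl1, had 127 counts or fewer in every library and was not tested in any table.

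Ostn RNA was counted in KI inguinal WAT and almost nowhere else. On chow all 7 WT libraries had 0 counts, and the 6 KI mice had 14 to 52 counts, or 1.22 to 4.17 CPM (median 2.82). With a floor of 3 counts per library for the WT mice (0.268 CPM on average), the KI level was at least 10.1-fold higher. On HFD 7 of 8 WT libraries had 0 counts and WT mouse 7 had 2, while the 8 KI mice had 9 to 27 counts, or 0.386 to 1.05 CPM (median 0.725). The summed counts, 148 in KI and 2 in WT mice, gave a ratio of 68.9 after scaling (95% exact interval 18.7 to 574, counting error only). In BAT all 12 libraries had 0 counts, which allows a level of up to 0.505 CPM in the shallowest WT library and 0.485 CPM in the shallowest KI library at 3 counts. So 0.386 CPM, the lowest KI value of inguinal WAT on HFD, would not have been reliably seen in a single BAT library. In KI BAT 3 counts equal 0.435 CPM on average, so 0.386 CPM would give somewhat under 3 counts per library. All 6 KI libraries had 0, so as a group they held less than that.

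KI mouse 4 on chow, with 59131 CPM of 6 skeletal muscle markers, had 2.35 CPM of Ostn, in the middle of its group, and both WT BAT libraries with over 1000 CPM of muscle markers had none. Summed muscle markers ranged on chow from 15.2 to 669.7 CPM in WT and from 39.1 to 59131 CPM in KI mice, and on HFD from 32.7 to 1078 CPM in WT and from 17.0 to 3540 CPM in KI mice. The 4 osteoblast markers summed to at most 1.39 CPM in any library, and Ibsp had a median count of 0 in each group. The part of muscle or bone cells in the Ostn counts was not tested. Brown adipocyte markers were also higher in KI mice on chow, at 64.3 to 476 CPM in KI and 8.06 to 47.1 CPM in WT mice (of 5 markers, Zic1 was at a median of 0 in both and Elovl3 in WT mice). On HFD they were 11.2 to 37.2 CPM in KI and 4.36 to 13.2 CPM in WT mice. Of the 5 markers, only Cidea passed the filter on low counts in inguinal WAT. Among KI mice on chow, mice 1 and 3 had the most of these markers (476 and 307 CPM) and the least Ostn (1.59 and 1.22 CPM). Trim66 and Plekhg6 were higher in KI libraries on both diets, and the part of brown adipocytes in the levels of the 4 genes was not tested. Of the natriuretic peptide system, 8 of 11 genes were tested in inguinal WAT on HFD and 7 in each other table, and only Mme, the peptidase that degrades these peptides, was called, lower on HFD (64.2 against 114 CPM, log2 fold change -0.82 ± 0.12, adjusted p = 4.96e-05, edgeR). Npr3 was abundant, with 1252 ± 212 CPM (SD, n = 8) in KI and 959 ± 145 CPM (n = 8) in WT mice on HFD and 745 ± 348 CPM (n = 6) in KI and 1004 ± 211 CPM (n = 7) in WT mice on chow, and was not called in any table. Over all genes tested on HFD in inguinal WAT, 6.21% were called higher and 5.24% lower. The median of the system was -0.08 on HFD, -0.08 on chow and -0.13 in BAT. No gene within 10 kb of Ostn had more than 2 counts in a library.

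The 4 genes differed in where they were highest. Mean Trim66 fell from 8.63 ± 3.03 CPM (SD) in BAT of KI mice through 6.43 ± 1.57 CPM in their inguinal WAT on HFD to 4.87 ± 2.27 CPM on chow, with overlap between each pair of neighbours in this order. Mean Plekhg6 was 29.1 ± 8.81 CPM on chow and 27.1 ± 9.77 CPM on HFD in KI inguinal WAT, which overlapped, and both lay clear of KI BAT at 7.47 ± 2.67 CPM. Extl1 went the other way, from 16.9 ± 6.10 CPM in KI BAT to 3.73 ± 1.96 CPM on chow and 2.09 ± 1.91 CPM on HFD, again with overlaps. Ostn was 2.72 ± 1.18 CPM on chow and 0.719 ± 0.254 CPM on HFD, without overlap. Among WT groups every neighbouring pair overlapped for each gene.

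Within one genotype, levels were also set side by side between diets and between depots. Diet and depot coincide with separate tables, and library effects cannot be told apart from them. Across all genes tested, 28.2% were called between HFD and chow in WT and 30.6% in KI mice. The genes were chosen for high KI levels in these tables, so KI differences are a description with no test. Between HFD and chow, KI mice differed by 0.44 (log2, 95% interval -0.16 to 1.04) for Trim66, -0.07 (-0.59 to 0.46) for Plekhg6, -0.81 (-2.29 to 0.66) for Extl1 and -1.88 (-2.63 to -1.12) for Ostn, which entered the fit only through its KI groups. No member was called between diets in WT mice: the difference was 0.41 (-0.32 to 1.13) for Trim66 and 1.17 (-0.45 to 2.80) for Extl1, and Plekhg6 (-0.72 ± 0.27) missed the call (adjusted p = 0.0328, edgeR).

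Between BAT and inguinal WAT on HFD, 55.9% of genes were called in WT and 59.1% in KI mice. No member was called in WT mice: BAT exceeded inguinal WAT by 0.92 (0.17 to 1.66) for Trim66, and the differences were -0.20 (-0.84 to 0.44) for Plekhg6 and -1.40 (-3.20 to 0.40) for Extl1. In KI mice the difference was 2.99 (1.70 to 4.28) for Extl1, -1.87 (-2.44 to -1.29) for Plekhg6 and 0.42 (-0.16 to 0.99) for Trim66. Against the floor of 3 counts per library, KI Ostn was at least 1.65-fold lower in BAT on average.

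Co-variation with stress genes was examined inside each group, since the genotypes form separate clusters. Atf4, Atf5 and Ddit3 are transcription factors of the ISR, Trib3 is a pseudokinase that they induce, and Mthfd2 is a mitochondrial folate enzyme under their control. A stress index was the mean, in each mouse, of the log2 levels of the 35 ISR genes, each first scaled over the mice of its group. A gene entered a group where its median count was at least 10, which gave 16 combinations and 96 relations. Pearson r was positive in 63 and negative in 33, 19 had an unadjusted p below 0.05 by the 2-sided exact permutation test, and 1 passed after adjustment over all 96, with none by Spearman's coefficient. In groups of 6 mice the possible pairings are so few that a single relation could not pass after adjustment, however strong. A failure to pass in those groups is therefore not read as absence of a relation.

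The relation that passed was Trim66 with Atf4 in the 8 KI mice of inguinal WAT on HFD (r = 0.89, exact permutation adjusted p = 0.031). Its Spearman coefficient was 0.929 (exact permutation adjusted p = 0.214). Without the 2 mice farthest from the median of Atf4, r was 0.558 (n = 6), and with each mouse left out it was 0.763 to 0.988. Leaving out the extreme mice also narrows the range of Atf4, so the fall to 0.558 cannot show how far the relation rests on them. For Trim66 and the stress index in the KI groups, r was 0.82 on HFD in inguinal WAT, 0.85 on chow and 0.87 for BAT (Spearman coefficients 0.786, 0.60 and 0.771; exact permutation adjusted p = 0.133, 0.236 and 0.133, none past the threshold). Leaving out the 2 mice farthest from the median of the index gave 0.668 (n = 6), -0.441 (n = 4) and 0.891 (n = 4). With 4 mice r is too uncertain to be read. In the 8 WT mice on HFD r was 0.17 with the index and negative with each of the 5 stress genes, from -0.60 (Atf4) to -0.04 (Ddit3), none past the threshold. On chow KI mouse 3 had the least Trim66 and the least Trib3 (1.14 and 60.0 CPM) and the most lymphocyte markers (315 CPM), and on HFD KI mouse 2 was lowest in both (3.81 and 63.7 CPM) with 513 CPM of those markers. BAT had no library with such markers.

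In BAT, KI mouse 6 was lowest for Trib3 (29.2 CPM, against 169 to 406 CPM in the other 5 mice), for Extl1 (5.77 against 15.3 to 23.6 CPM) and for Trim66 (5.13 against 6.24 to 12.7 CPM). There r was 0.98 for Extl1 with Trib3 (Spearman coefficient = 0.886, exact permutation adjusted p = 0.133) and 0.83 for Trim66 with Trib3 (Spearman coefficient = 0.886, adjusted p = 0.133). Without the 2 mice farthest from the median of Trib3 they were 0.935 and 0.913, but only 4 mice then remained, too few to judge either relation. In KI inguinal WAT, r of Extl1 with the stress index was -0.77 on chow (Spearman coefficient = -0.829, exact permutation adjusted p = 0.25). Without the 2 mice farthest from the median it was -0.775 (n = 4). On HFD it had no steady sign: r was -0.53, the Spearman coefficient 0.0714 and r without the 2 farthest mice 0.675.

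For Ostn and the stress index, r was positive in the 6 KI mice on chow (r = 0.91, Spearman coefficient = 0.829, exact permutation adjusted p = 0.133) but not in the 8 on HFD (r = -0.06, Spearman coefficient = 0.143, adjusted p = 0.965). The difference between these r values was not tested, and none passed the threshold. Plekhg6 had no steady relation, with r between -0.46 and 0.63 over the 6 groups and a positive sign in 5.

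**Figure D4:**
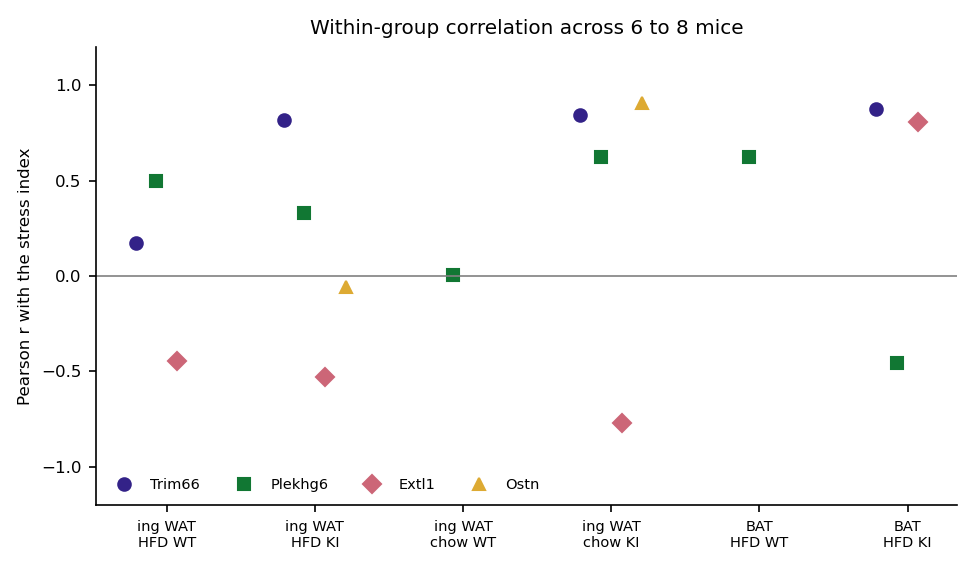
Pearson r of each gene with the stress index within each group of 6 to 8 mice; a gene is shown where its median count was at least 10. Trim66 lies at 0.82 to 0.87 in the KI groups, and Extl1 at 0.81 in KI BAT and -0.77 in KI mice on chow; its -0.53 in KI mice on HFD changes sign without 2 mice (0.675).

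**Figure D5:**
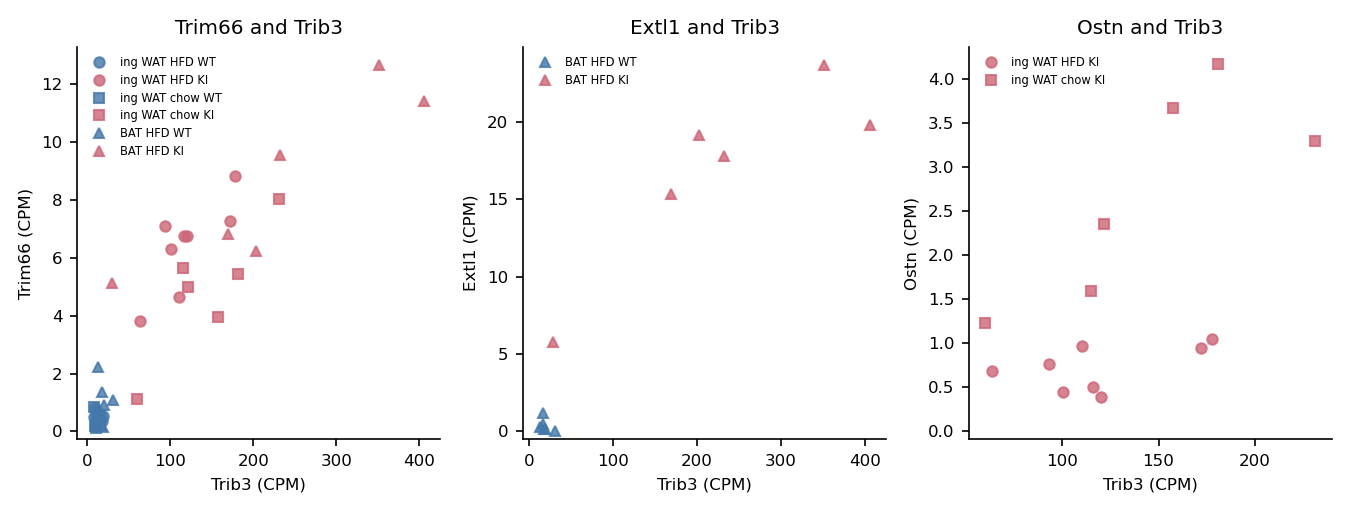
Levels (CPM) of Trim66 in all mice, Extl1 in BAT and Ostn in KI inguinal WAT against Trib3 (CPM), 1 point per mouse (blue WT, red KI; circles and squares inguinal WAT on HFD and chow, triangles BAT). KI mouse 6 of BAT is the red triangle at 29.2 CPM of Trib3, lowest in its group for Trib3, Trim66 and Extl1.

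The genes most like each member were sought over all 41 columns among 17002 genes, by Pearson r of log2(CPM + 0.5). Such r values mix genotype, diet, depot and library, and are given as a description with no test. Most like Trim66 were Cyb5r1 (0.926), Trib3 (0.925), Aars (0.921), Atf5 (0.895) and Eprs (0.890), of which Aars and Eprs charge tRNAs with amino acids. Among the 5 most like Plekhg6 were Tbc1d31 (0.882), Gpr146, Ostn (0.812) and Xrcc5. For Ostn the list was Gm15866 (0.849), Sh2d6, Tmem117, Cobl and Tbc1d31, with Plekhg6 next. Those most like Extl1 were Rcc2 (0.841), Mreg, Scd3, Soat2 and Vmn2r3, and with the other members Extl1 had r of 0.671 (Trim66), 0.338 (Plekhg6) and 0.214 (Ostn).

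After the mean of each group was subtracted, so that only differences among mice of one group remained, other genes led. Extl1 was then most like Gm16170 (0.838), Trim7, Pim2, Clcf1 and Cd24a (0.769), of which Pim2 and Cd24a are much expressed in lymphocytes. Trim66 was most like Slc5a3 (0.658), Dclre1a, 1810013L24Rik, Smurf1 and Uggt2. The 5 most like Plekhg6 included Ltbr (0.694), Dnajb12, Psmc3 and Pik3r2, and Ostn most like Mest (0.666), Ahnak, Cpne2, Gm36640 and Emp1. Among each other the members kept little: r was 0.313 for Trim66 with Ostn, 0.181 for Trim66 with Plekhg6, 0.153 for Plekhg6 with Ostn and -0.111 to -0.314 for Extl1 with the other 3.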

How the data were processed

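The authors trimmed reads with cutadapt, aligned them with STAR to GRCm38 and counted them per gene with featureCounts, as the submitters' processing notes and the paper's methods name these tools; whether counting used strand is not given in the sources used here. Raw counts were deposited, 1 column per mouse, in 3 tables; the mice on HFD had 2 technical libraries in inguinal WAT and 1 column. Of 54838 entries, 1884 without counts and 101 repeated symbols with identical counts were left out. Counts were fitted with edgeR 4.0.16 (R 4.3.3; TMM, filterByExpr, robust quasi-likelihood, Benjamini-Hochberg over all genes tested), for genotype within each table and for diet and depot in fits of 4 groups. SE was taken as |log2 fold change| divided by √F. Groups of Ostn without counts were given a floor of 3 counts per library. Tested on simulated counts with 200 genes changed by 1.5 (log2), the genotype fits recovered 92.5% in inguinal WAT on HFD (16700 genes), 92% on chow (14907) and 84% in BAT (13319). The spread of the simulated counts was set by a formula and not estimated from these mice, so these rates are not the power of the real fits. The fits were repeated with each mouse left out, with RLE size factors, without the filter, with a replicate block, over all 6 groups at once, at an adjusted p below 0.05 and in DESeq2 1.42.0. Correlations used log2(CPM + 0.5), and intervals and floors cover counting error only where said. Genes were named by a rule: the 4 members, Mfn2, 5 stress genes, the extreme called genes of each list, a few partners, neighbours within 10 kb and the 5 genes most like each member. Gpc1 is named besides, after its value was seen. The members and gene lists were chosen with earlier results of these data known. A few genes that these rules would name are not reported here.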

Additional observations from a re-analysis of the deposited data

Results flagged for a closer look

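In 2 groups 1 mouse stood far from the others for Extl1, by the gap to its neighbour relative to the range of the group (Dixon's 95% critical value). In inguinal WAT on HFD, KI mouse 2 had 6.49 CPM and the next KI mouse 2.60 CPM, a gap of 0.678 of the range against a critical 0.526 (n = 8). On chow, WT mouse 4 had 2.33 CPM and the next WT mouse 0.273 CPM, a gap of 0.883 of the range against 0.568 (n = 7). Both libraries carried lymphocyte markers (513 and 81.0 CPM), whose part was not tested. Chance would flag about 1 in 20 of the 20 groups of mice examined.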

How the results depend on the processing

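Of 1156 alternative values of 39 main results, 1102 were counted as unchanged, by a rule that differed between kinds of result. KI effects and their differences had to keep their sign and stay within the SD among mice. Bounds and ratios of Ostn had to stay within that SD. Numbers of genes or relations called had to stay close to the main number. Levels between diets or depots had to keep their side of the threshold. Their size was not judged, so they could move widely and still count as unchanged. Genes called higher and lower in KI mice numbered 1023 and 863 on HFD (inguinal), 286 and 186 on chow, and 180 and 63 in BAT. At an adjusted p below 0.05 the sums were 3448, 1252 and 952, in 1 fit of all 6 groups 1242, 1088 and 834, and with each mouse left out 1460 to 2338, 288 to 497 and 134 to 313. DESeq2 called 1107 on chow and 717 in BAT, no low-count filter left 266 on chow, and without muscle-marker libraries 1004 remained called on HFD. Replicate numbers did not pair the mice (r of same-numbered mice from -0.255 to 0.687 between KI and WT on HFD, 2 of 8 above 0.1). With a replicate block 102 genes were called on chow and 2153 between diets in KI mice (5332 without). In KI mice Ostn between diets was -1.82 with the block and -1.88 without it, a description with no test. Extl1 moved most: without lymphocyte-marker libraries, chosen after seeing the data, it was 2.05 on HFD and 4.66 on chow, and its difference between depots 3.26; without muscle-marker libraries it was 6.63 in BAT. Leaving out each mouse gave Extl1 0.40 (without KI mouse 2) to 1.61 (without WT mouse 2) on HFD in inguinal WAT, 2.63 to 4.55 on chow (highest without WT mouse 4), 4.98 to 6.15 in BAT (highest without WT mouse 2), -2.33 to -0.72 between depots and 0.52 to 2.85 between diets in WT mice, -3.64 to -1.31 for the diet difference and 3.71 to 5.31 for the depot difference. The diet difference of Trim66, 0.03, changed sign (-0.059 without lymphocyte-marker and -0.15 without muscle-marker libraries; -0.26 to 0.23 with each mouse left out). In WT mice Plekhg6 between diets (-0.72; -0.93 to -0.64) and Trim66 between depots (0.92; 0.48 to 1.15) passed at 0.05, and at 0.01 without HFD WT mouse 7 for Plekhg6 and without BAT WT mouse 2 or 3 for Trim66. The relation past 0.05 with stress genes (1) fell to 0 without marker libraries and ranged from 0 to 1 with each mouse left out, being 0 without KI mouse 2, 3, 4, 6, 7 or 8 on HFD. Causes were not tested. Few counts limit Ostn, and Trim66 and Extl1 in WT mice.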
